A study of Rattus norvegicus with 56 samples.

Results

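The 4 microRNAs described here are miR-29a-3p, miR-29b-3p and miR-29c-3p, which form the miR-29 family, and miR-21-5p. They were chosen by name, as microRNAs linked to fibrosis in the heart, and are 4 of the 682 mature microRNAs listed in the deposited count tables. Small RNA was sequenced from SD rat fetuses collected on embryonic day 19 and from their dams, in 56 samples. The NC group came from dams that received distilled water by gavage. The VSD and non-VSD groups came from dams that received dimethadione (DMO), a teratogen that causes heart defects, by the same route. VSD fetuses had a ventricular septal defect without a malformation of the great vessels, and non-VSD fetuses had been exposed to DMO but had an intact septum. Fetuses that looked abnormal from outside had been left out by the study, and which fetuses shared a dam was not stated, so p-values measure the spread between samples, some of which may be littermates. Myocardium (from wax-embedded hearts) and amniotic fluid (supernatant) had 7 samples in each of the 3 groups, and maternal serum had 7 NC and 7 VSD samples.

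The miR-29 microRNAs repress messenger RNAs of the extracellular matrix, among them those of collagens, elastin and fibrillin, and they are known from the adult heart for falling where scar tissue forms. miR-21 is among the most abundant microRNAs of many cells and is known in the heart for its activity in fibroblasts. Each hairpin precursor gives a 5p and a 3p arm, of which usually 1 is loaded into Argonaute and the other is degraded.

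The mature sequences show which of these microRNAs can share targets and which could share reads. They are given 5′ to 3′ from RefSeq, in which all 4 members were found, with the seed (bases 2 to 8, which pair with targets) in capitals.
miR-29a-3p: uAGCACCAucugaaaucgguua
miR-29b-3p: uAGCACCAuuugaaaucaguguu
miR-29c-3p: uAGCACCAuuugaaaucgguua
miR-21-5p: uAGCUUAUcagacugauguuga
The 3 miR-29 members share the seed AGCACCA, and no other of the 693 mature rat microRNAs in RefSeq carries it. Among the same 693, the seed AGCUUAU belongs to miR-21-5p alone. Of the 682 listed microRNAs, 617 were found in RefSeq by name, and the others were not checked for either seed. Counting positions from 1 at the 5′ end, miR-29c-3p differs from miR-29a-3p by the single substitution C10U. miR-29b-3p differs from miR-29c-3p by G18A, U21G and A22U and is 1 base longer, and its ending, aguguu, is known in human cells as a signal for import into the nucleus. Reads that stop before position 18 cannot be told apart between miR-29b-3p and miR-29c-3p, and 1 sequencing error at position 10 turns miR-29a-3p into miR-29c-3p. How the authors assigned such reads is not given in the sources used here, so the split within the family is uncertain to that extent. In the RefSeq annotation of GRCr8, Mir29a and Mir29b1 lie 291 bases apart on the minus strand of chromosome 4, and Mir29b2 and Mir29c lie 447 bases apart on the plus strand of chromosome 13. The mature miR-29a-3p spans chr4:60617968-60617989 and miR-29c-3p spans chr13:109099412-109099433. miR-29b-3p is encoded by both clusters, at chr4:60618342-60618364 and chr13:109098882-109098904, so its count sums 2 loci. miR-21-5p spans chr10:71902653-71902674 on the minus strand. The deposited tables name no genome build.

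Total counts were between 1694811 and 9371130 in myocardium, between 78188 and 331787 in amniotic fluid and between 147609 and 581350 in maternal serum. A count of 0 allows up to 3 counts, which correspond to 0.320 to 1.77 CPM (counts over the library's total count, times 1000000) in myocardium and to 9.04 to 38.4 CPM in amniotic fluid. Such limits cover counting error only. Heart muscle microRNAs (miR-1, miR-133, miR-208 and miR-499) made up 1.64% to 15.4% of the NC myocardium libraries, and none of the 7 on that list was at 0. NC replicate 2 of the myocardium had the lowest median correlation with the other libraries (0.937, the next 0.943).

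Levels by tissue came first, as CPM by library size. In NC myocardium, miR-21-5p was between 84443 and 120851 CPM with a median of 109023, which was 8.44% to 12.1% of all counts and the 2nd highest microRNA in each of the 7 samples. In NC amniotic fluid it was between 5062 and 18879 CPM (median 10180), and in NC maternal serum between 1187 and 2271 CPM (median 1586). No range overlapped another, and the order was myocardium, amniotic fluid, serum.

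miR-29a-3p had the opposite order. It was between 15.6 and 44.0 CPM in NC myocardium (median 21.4), between 862 and 2809 CPM in amniotic fluid (median 1627) and between 14084 and 25971 CPM in serum (median 20253). Its median rank among listed microRNAs was 279 in myocardium and 9 in serum. miR-29c-3p followed the same order, with ranges of 1.83 to 4.38 CPM in myocardium, 179 to 930 CPM in amniotic fluid and 1348 to 4885 CPM in serum. For miR-29b-3p the ranges were 1.51 to 6.72 CPM in myocardium, 0 to 206 CPM in amniotic fluid and 149 to 376 CPM in serum, and the amniotic fluid range overlapped both others.

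Each of the 12 differences of means between tissues had an adjusted p under 0.05 (exact two-sided permutation tests on mean log2(CPM + 1), Benjamini-Hochberg adjusted p between 0.000699 and 0.00466). Mean log2(CPM + 1), a scale that understates differences from low levels, was lower in myocardium than in serum by a difference of -9.77 for miR-29a-3p, -9.32 for miR-29c-3p and -5.95 for miR-29b-3p, and higher by 6.06 for miR-21-5p. For 10 of the 12 pairs the unadjusted p was 0.000583, the smallest that 7 against 7 samples can give. RNA was extracted by another method in each tissue, and amniotic fluid also had another library kit and sequencer than myocardium and serum, which shared both, so tissue and method cannot be told apart.

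**Figure D1:**
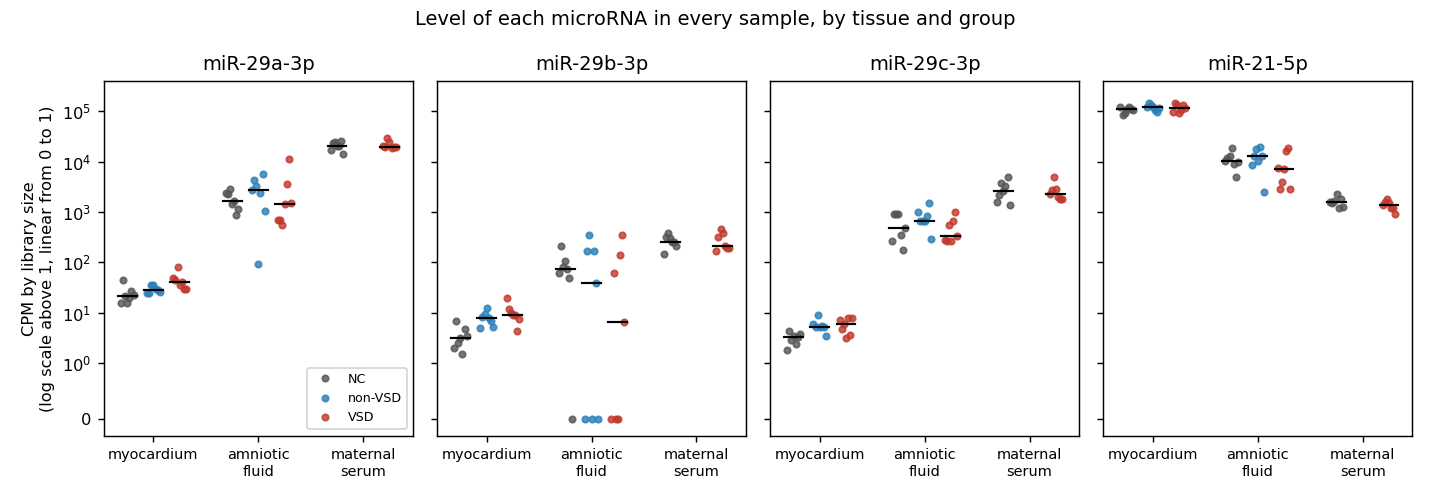
Level of each microRNA in every sample, in CPM by library size (log scale above 1, linear from 0 to 1), for myocardium, amniotic fluid and maternal serum; points are samples coloured by group and bars are group medians. The 3 miR-29 members rise from myocardium to serum, while miR-21-5p falls from 84443 CPM or more in NC myocardium to 2271 CPM or less in NC serum.

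The arm of the miR-29c precursor with more counts also differed between the tissues, and here too tissue and method cannot be told apart. The hairpin is shown with its arms, miR-29c-5p and then miR-29c-3p, in capitals, since both were counted.
Mir29c: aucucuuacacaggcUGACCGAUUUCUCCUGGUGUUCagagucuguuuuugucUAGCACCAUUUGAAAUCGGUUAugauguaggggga
In myocardium miR-29c-5p was above miR-29c-3p in 21 of 21 samples, with 3026 against 676 counts in all, or 81.7% of both arms. In serum it was above in 0 of 14 samples (18 against 13538 counts), and in amniotic fluid in 0 of 21 (27 against 1913 counts). Within myocardium the share of the 5p arm was between 74.2% and 88.6% in NC, between 75.9% and 87.9% in non-VSD and between 68.2% and 90.7% in VSD samples. It did not differ detectably between the groups: VSD minus NC was 0.251 percentage points and non-VSD minus NC 0.300 (exact two-sided permutation tests, adjusted p = 0.947 for both). This share was looked at after the levels had been seen. Mir29a and Mir21 kept the member arm on top in myocardium, where miR-29a-5p had 4 counts against 1150 of miR-29a-3p in the NC group, and miR-21-3p had 266 against 4717180 of miR-21-5p. miR-29b-5p, the 5p arm of Mir29b2, had 50 counts there against 170 of miR-29b-3p, which sums both loci. The 5p arm of Mir29b1 was not among the arms counted here, so the balance of arms at either miR-29b precursor is not known.

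In myocardium miR-29b-3p was the member that stood out. After TMM scaling, which sets libraries to a common level on the assumption that most microRNAs do not change, it was between 1.91 and 5.46 CPM in NC samples (median 4.34), between 5.12 and 11.4 CPM in non-VSD samples (median 7.44) and between 4.42 and 13.8 CPM in VSD samples (median 7.66). All 14 samples of DMO-exposed fetuses were above the NC median and 11 of them were above the highest NC sample. Those levels rested on 7 to 63 counts per NC sample, 27 to 77 per non-VSD sample and 17 to 161 per VSD sample.

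With both DMO groups against NC, miR-29b-3p was 2.08-fold higher (log2 fold change 1.06, SE 0.25, adjusted p = 0.0157 over 483 microRNAs, edgeR's quasi-likelihood test). It was the only one of the 4 members called there, at an adjusted p under 0.05, where 8.49% of all microRNAs were called and 2.28% were called higher. It also passed the study's own threshold, an unadjusted p under 0.05 with at least a 2-fold change, which 4.76% of microRNAs passed. Leaving out NC replicate 1 raised its adjusted p to 0.0518 (log2 fold change 0.96, edgeR), and in the other 20 sets with 1 library left out it stayed under 0.05, including the set without NC replicate 2 (log2 fold change 1.27). A filter of at least 10 counts in every sample removed it from the test.

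In the separate comparisons with the same NC samples, miR-29b-3p had a log2 fold change of 1.15 (SE 0.30, unadjusted p = 0.00151, adjusted p = 0.0645, edgeR) in VSD and of 0.995 (SE 0.28, unadjusted p = 0.00293, adjusted p = 0.0911, edgeR) in non-VSD fetuses. The latter, at 1.99-fold, was just short of a 2-fold change. Without NC replicate 2 both passed (adjusted p = 0.0229 and 0.0410, edgeR), and without VSD replicate 6 the former did (0.0344). With all libraries neither passed the adjusted threshold, which 0.426% and 0.219% of microRNAs passed, and the former passed the study's threshold, as did 6.82% of microRNAs. With DESeq2 both passed an adjusted p under 0.05 (0.00819 and 0.020), as they did with limma on log2(CPM + 1), which scales by library size (0.0297 and 0.0354). Those tools called more of all microRNAs in VSD and non-VSD against NC than edgeR did, 9.81% and 10.5% with DESeq2 and 9.38% and 6.36% with limma. Of the limma calls, 41 of 44 and 27 of 29 were higher, and of the DESeq2 calls 16 of 46 and 21 of 48. VSD and non-VSD fetuses differed in miR-29b-3p by a log2 fold change of 0.20, with a 95% interval from -0.34 to 0.73.

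Other microRNAs moved with this difference. The 4 red blood cell microRNAs (miR-144-3p, miR-144-5p, miR-451-5p and miR-486) were called lower in DMO-exposed myocardium, 4 of 4, with a median log2 fold change of -2.0 (2 of 4 with scaling by library size), and made up 0.327% to 7.31% of NC, 0.305% to 3.49% of non-VSD and 0.477% to 2.42% of VSD libraries. Of the white blood cell list 1 of 4 was called lower, and of the endothelial list 1 of 2 was called higher. Over all microRNAs, 8.49% were called in that comparison and 2.28% were called higher. Scaling by library size called 11.6% of all microRNAs. No microRNA of the epithelial (8), heart muscle (7), mesenchymal (5) or liver (1) list was called, and none of these markers was at 0 throughout a group. Their part in the change of miR-29b-3p was not tested. In bulk tissue, fewer cells of a type and less RNA per cell cannot be told apart.

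**Figure D2:**
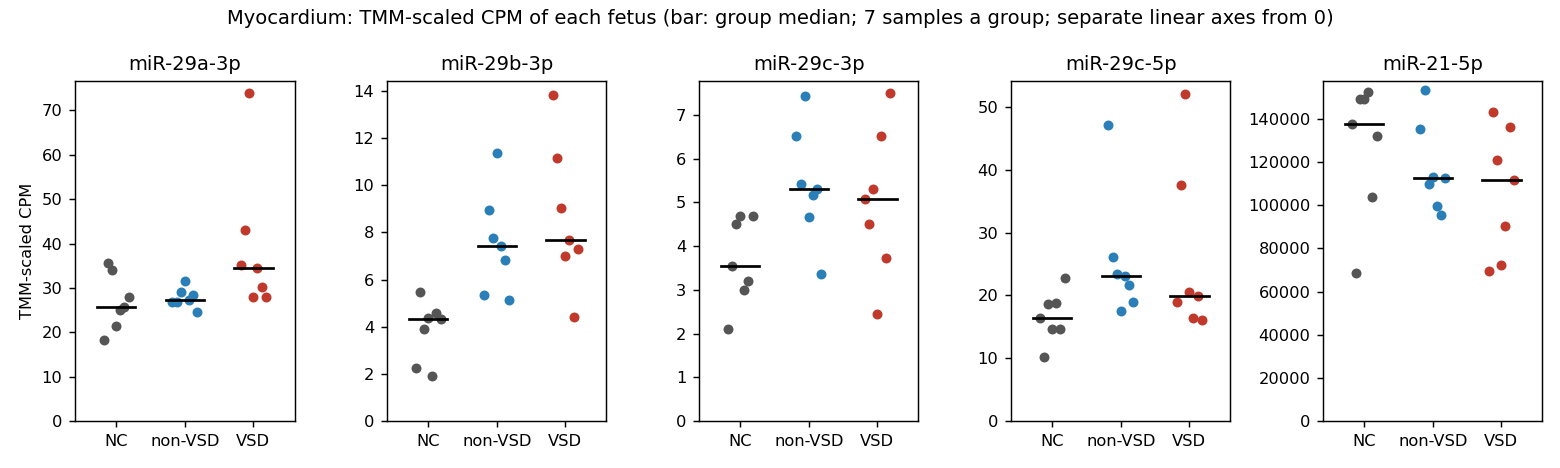
TMM-scaled CPM of the 4 members and of miR-29c-5p in each myocardium sample (7 NC, 7 non-VSD and 7 VSD), with bars at the group medians and a separate linear axis from 0 for each microRNA. For miR-29b-3p, 11 of the 14 DMO-exposed samples lie above the highest NC sample, while the ranges of the groups overlap widely for miR-21-5p.

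miR-29c-3p had ranges of 2.10 to 4.70 CPM in NC, 3.36 to 7.45 CPM in non-VSD and 2.45 to 7.51 CPM in VSD myocardium (TMM-scaled). Of the DMO-exposed samples, 9 of 14 were above the highest NC sample. Its log2 fold change for all DMO-exposed fetuses was 0.51 (SE 0.23, unadjusted p = 0.0392, adjusted p = 0.204, edgeR). The other arm of its precursor, miR-29c-5p, gave 0.63 (SE 0.25, adjusted p = 0.129, edgeR), with 13 of 14 samples above the NC median of 16.3 CPM. Neither arm passed the adjusted threshold, and with scaling by library size both did (log2 fold changes 0.85 and 0.97, adjusted p = 0.0248 and 0.00961), where 11.6% of all microRNAs were called, 47 of the 56 higher.

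miR-29a-3p, the most abundant of the family, was between 18.3 and 35.7 CPM in NC (median 25.7), between 24.6 and 31.6 CPM in non-VSD (median 27.3) and between 28 and 73.9 CPM in VSD myocardium (median 34.6). The highest value belonged to VSD replicate 3, the shallowest myocardium library. VSD samples gave a log2 fold change of 0.53 against NC (SE 0.25, adjusted p = 0.257) and 0.48 against non-VSD samples (SE 0.21, adjusted p = 0.426), and non-VSD against NC gave 0.08 (SE 0.18, adjusted p = 0.903), all by edgeR. Without VSD replicate 3 the 2 former values were 0.21 and 0.20. Of the epithelial list, 8 of 8 had values above 0 in VSD myocardium, with a median log2 fold change of 1.2 against NC and 1.61 against non-VSD samples, and 0 of 8 above 0 in non-VSD against NC, though none was called. They made up 0.0167% to 1.75% of NC (median 0.108%), 0.0296% to 0.724% of non-VSD (median 0.181%) and 0.191% to 2.12% of VSD libraries (median 0.34%). The non-VSD median was thus above the NC median, although all 8 log2 fold changes were below 0 there. The part of the epithelial microRNAs in the values of miR-29a-3p and miR-29b-3p was not tested. Between VSD and non-VSD myocardium 0 of 4 members were called by edgeR, DESeq2 or limma, as were 0% of all microRNAs by edgeR, and 1 member, miR-29a-3p, had an unadjusted p under 0.05 there, at 11.6% of all microRNAs.

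miR-21-5p did not follow the miR-29 members. It was between 68563 and 152305 CPM in NC (median 137816), between 95670 and 153348 CPM in non-VSD (median 112826) and between 69702 and 143253 CPM in VSD myocardium (median 111787), all TMM-scaled. The ranges overlapped almost wholly, though only 1 of 7 VSD and 1 of 7 non-VSD samples were above the NC median. NC replicate 2 had the lowest value. Its log2 fold change was -0.26 (SE 0.21) in VSD, -0.08 (SE 0.19) in non-VSD and -0.19 (SE 0.16) in all DMO-exposed fetuses, with adjusted p between 0.481 and 0.903 (edgeR), and these signs turned with scaling by library size, to 0.16, 0.18 and 0.17. That scaling moved the median of all microRNAs to 0.32, 0.13 and 0.25 from -0.05, -0.07 and -0.06. TMM factors had medians of 0.802 in NC, 1.03 in non-VSD and 1.11 in VSD myocardium. Relative to the median of all microRNAs, the change of miR-29b-3p in all DMO-exposed fetuses was 1.12 with TMM and 1.1 with library size.

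Shares within the family need no scaling between libraries. In NC myocardium miR-29b-3p made up 6.36% to 14.4% of the summed counts of the 3 miR-29 members (median 11.8%), in non-VSD 13.9% to 23.8% (median 17.5%) and in VSD 10.2% to 25.6% (median 17.0%). In non-VSD samples the mean share was 7.18 percentage points higher than in NC (7 of 7 above the NC median, exact two-sided permutation test, p = 0.00117, adjusted p = 0.00874 over 15 tests). In VSD samples the difference from NC was 5.72 points, which did not pass (5 of 7 above the NC median, exact permutation test, p = 0.0192, adjusted p = 0.0962). Without VSD replicate 3 or VSD replicate 6 it passed, at 6.82 and 6.61 points (exact tests, adjusted p = 0.0321 and 0.0495).

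The share of miR-29a-3p was 70.1% to 83.6% in NC and 65.1% to 74.3% in non-VSD myocardium, and its mean was lower in non-VSD samples by a difference of -9.66 percentage points, with 0 of 7 above the NC median (exact p = 0.00117, adjusted p = 0.00874). Since the 3 shares are parts of the same sum, this fall mirrors the rise of the other shares and is not a separate result. The level of miR-29a-3p gave a log2 fold change of 0.08 there (edgeR). In VSD samples the share of miR-29a-3p differed from NC by -4.96 points, which did not pass (exact p = 0.133, adjusted p = 0.400). The share of miR-29c-3p differed from NC by 2.48 points in non-VSD and by -0.77 points in VSD samples, neither past the threshold (exact tests, adjusted p = 0.380 and 0.896). In amniotic fluid and serum, none of the 9 tests of a share had an adjusted p under 0.05 (exact tests, lowest adjusted p = 0.546).

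**Figure D3:**
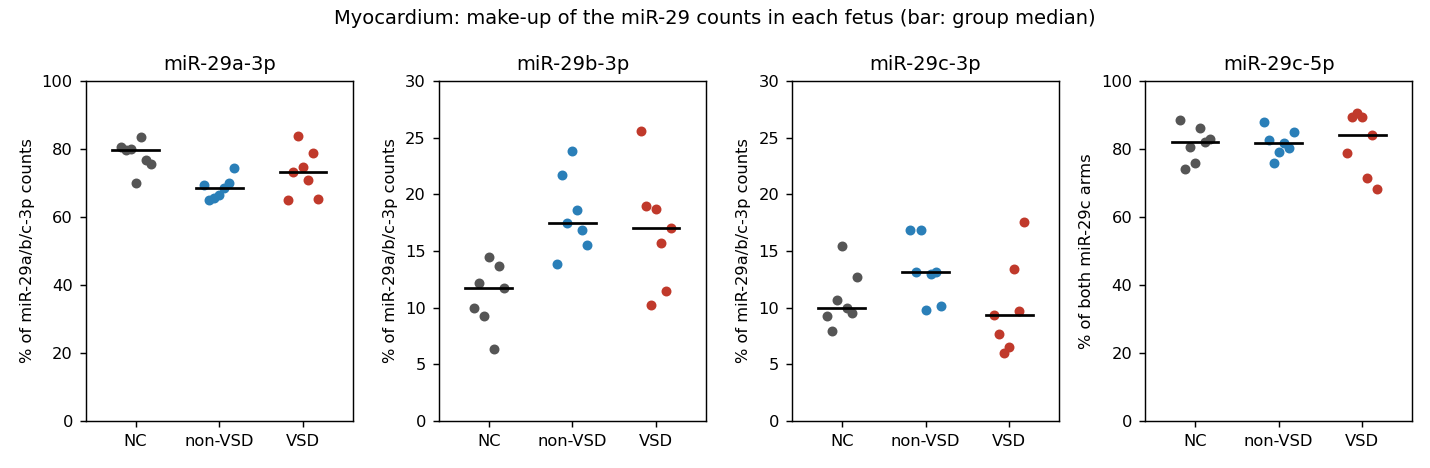
Percent of the summed miR-29a, miR-29b and miR-29c 3p counts that each member made up in every myocardium sample, and, at the right, miR-29c-5p as a percent of both miR-29c arms; points are samples and bars group medians. miR-29b-3p takes a median of 11.8% in NC, 17.5% in non-VSD and 17.0% in VSD samples, and miR-29c-5p is above 68% throughout.

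In amniotic fluid the members varied far more between samples of a group than between groups. miR-29a-3p was between 917 and 2763 CPM in NC (median 1753), between 70.3 and 6014 CPM in non-VSD (median 2696) and between 489 and 12691 CPM in VSD samples (median 1745), all TMM-scaled. VSD replicate 6 held the highest value and non-VSD replicate 4 the lowest, and the groups overlapped. Its log2 fold change against NC was 0.77 (SE 0.59) in VSD and 0.71 (SE 0.53) in non-VSD samples, with adjusted p = 0.623 and 0.505 (edgeR). Without VSD replicate 6 the former was -0.29.

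miR-21-5p in amniotic fluid was between 5387 and 19394 CPM in NC, between 2608 and 19128 CPM in non-VSD and between 2868 and 20682 CPM in VSD samples, with medians of 9616, 13346 and 7659 CPM. miR-29c-3p had medians of 468, 688 and 377 CPM in the same order. miR-29b-3p was at 0 in 7 of 21 samples, 1 NC, 3 non-VSD and 3 VSD, where a count of 0 allows 12.3 to 37.9 CPM by library size, and it was at most 388 CPM. It was left out by the count filter in VSD against NC, so that 3 members were tested there.

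None of the tested members was called in the 4 comparisons of amniotic fluid by edgeR, DESeq2 or limma, and none had an unadjusted p under 0.05 by edgeR, at 13.5%, 19.4%, 10.6% and 16.5% of all microRNAs for VSD and non-VSD against NC, VSD against non-VSD and all DMO against NC. Of all microRNAs, 0%, 4.96%, 0% and 0.733% were called. The intervals were wide. For miR-21-5p in VSD against NC, the 95% interval around the log2 fold change of -0.30 reached from -1.11 to 0.51, and for miR-29b-3p in non-VSD against NC the interval around 0.42 reached from -1.73 to 2.58, so that a change of the size measured for it in myocardium was not detectable there.

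In maternal serum miR-29a-3p was between 14489 and 26036 CPM in NC (median 22667) and between 16782 and 24755 CPM in VSD samples (median 21914), TMM-scaled, and the VSD range lay inside the NC range. The log2 fold change was 0.00 (95% interval from -0.34 to 0.34, adjusted p = 0.997, edgeR). miR-29b-3p and miR-29c-3p differed by -0.06 (SE 0.23) and -0.22 (SE 0.27), also within the spread.

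miR-21-5p was between 1280 and 2101 CPM in NC serum (median 1591) and between 1016 and 1526 CPM in VSD serum (median 1360). None of the 7 VSD samples was above the NC median, though the ranges overlapped. The log2 fold change was -0.30 (SE 0.16, unadjusted p = 0.0868, adjusted p = 0.489, edgeR), and an exact two-sided permutation test of the mean log2 CPM, 1 of 36 permutation tests of a member, gave p = 0.0122 with no adjustment. Total counts of the serum libraries were lower in VSD (147609 to 370867) than in NC samples (271578 to 581350), and the part of that in the difference was not tested. Of the 4 members 0 were called in serum by edgeR, DESeq2 or limma, and 0 had an unadjusted p under 0.05 by edgeR, where 0% and 13.7% of all microRNAs had.

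**Figure D4:**
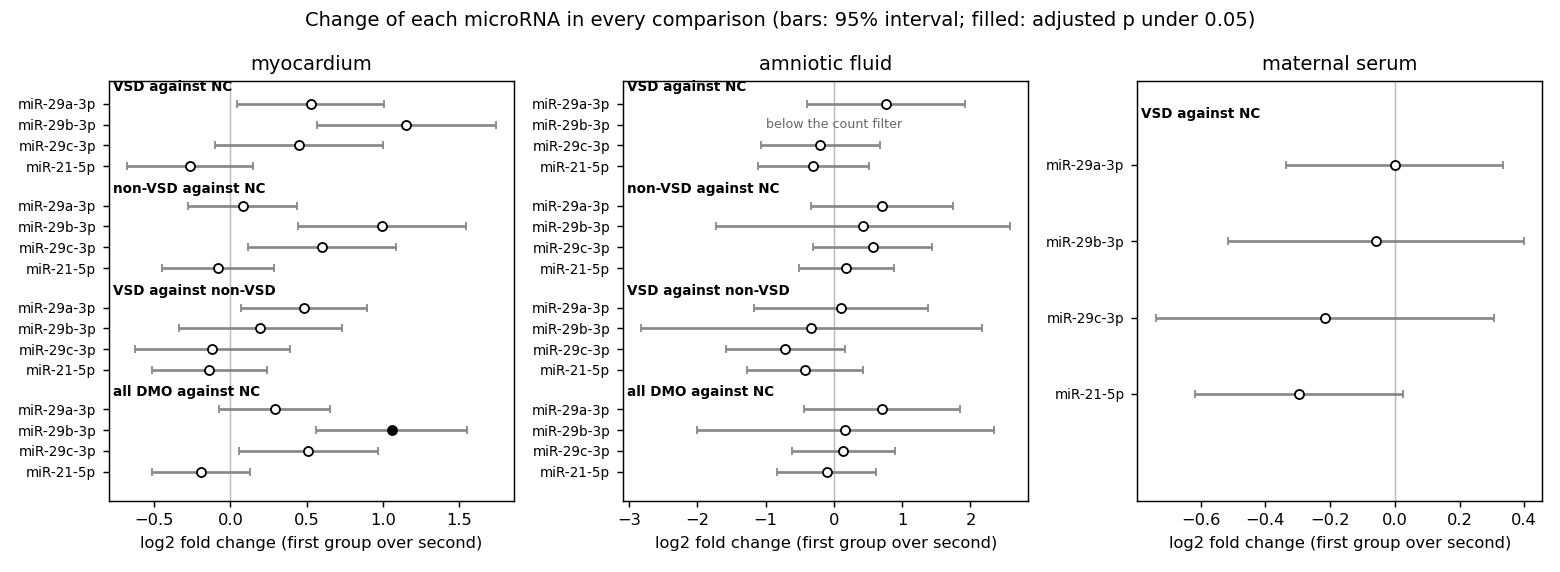
Log2 fold change of each member in the 9 comparisons of myocardium, amniotic fluid and maternal serum, with bars for the 95% interval from its SE (edgeR). The interval assumes a normal distribution and is somewhat narrower than the test implies. A filled point has an adjusted p under 0.05, and the axes differ in range. The single filled point is miR-29b-3p in all DMO-exposed against NC myocardium, at 1.06.

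The change of miR-29b-3p in VSD against NC was compared between tissues. In mean log2 CPM it was 1.11 in myocardium, -0.88 in amniotic fluid and -0.06 in serum. The amniotic fluid value is for a microRNA below the count filter there, at 0 in 3 of 7 VSD and 1 of 7 NC samples. It therefore depends in part on the prior count of 2 used for log2 CPM. Myocardium exceeded serum by 1.17 (permutation test within tissues, p = 0.00681, adjusted p = 0.109 over 16 tests) and amniotic fluid by 1.99 (permutation p = 0.0387, adjusted p = 0.310). Neither difference passed the adjusted threshold, and for the other 14 the unadjusted permutation p was 0.0944 or higher. The NC samples of a tissue enter both of its DMO comparisons.

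Relations across samples were computed with the group means removed. In amniotic fluid all 6 pairs had a positive Pearson r, from 0.42 to 0.68 over 21 samples, and 4 of 6 had an adjusted p under 0.05 (100000 permutations within groups, adjusted over 18 pairs in 3 tissues). miR-29c-3p and miR-21-5p had r = 0.68 (permutation p = 0.00061, adjusted p = 0.0110) and rho = 0.65 (permutation p = 0.00183, adjusted p = 0.0127), and r was 0.58 without the 2 samples farthest from the median. miR-29a-3p and miR-21-5p had rho = 0.72 (permutation p = 0.00125, adjusted p = 0.0127) and r = 0.58 (permutation p = 0.0269, adjusted p = 0.0693), or r = 0.62 without the 2 farthest. All values of a sample come from 1 shallow library, whose quality they share.

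In myocardium, miR-21-5p had r between -0.37 and 0.15 with the miR-29 members, none past the threshold (permutation tests, adjusted p of 0.218 or higher). miR-29a-3p and miR-29b-3p had rho = 0.57 (permutation p = 0.0122, adjusted p = 0.0350) and r = 0.46 (permutation p = 0.0662, adjusted p = 0.132), or r = 0.51 without the 2 farthest. In serum, over 14 samples, miR-29a-3p and miR-29c-3p had r = 0.80 (permutation p = 0.00357, adjusted p = 0.0265), rho = 0.67 (permutation p = 0.0280, adjusted p = 0.0560) and r = 0.82 without the 2 farthest. miR-29b-3p and miR-29c-3p had rho = 0.67 (permutation p = 0.0136, adjusted p = 0.0350) and r = 0.61 (permutation p = 0.0218, adjusted p = 0.0654), or r = 0.43 without the 2 farthest, and miR-21-5p had an r of at most 0.38 with any miR-29 member.

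**Figure D5:**
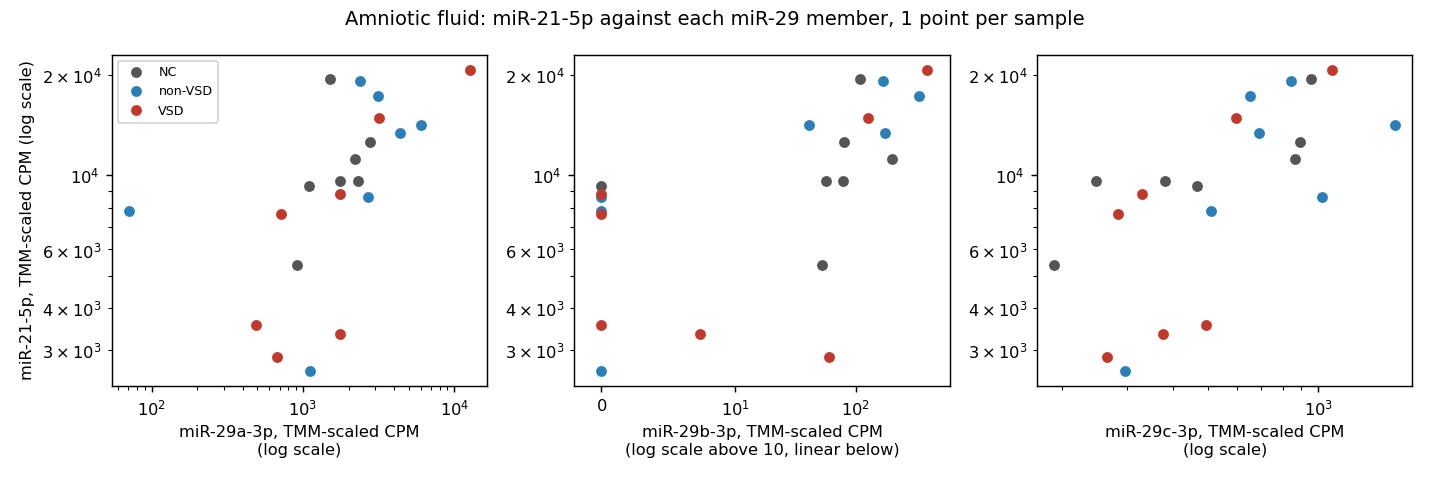
TMM-scaled CPM of miR-21-5p (log scale) against that of miR-29a-3p, miR-29b-3p and miR-29c-3p in the 21 amniotic fluid samples, coloured by group; the miR-29b-3p axis is linear below 10 so that the 7 samples at 0 can be shown. Samples high in a miR-29 member tend to be high in miR-21-5p, with rho of 0.72, 0.67 and 0.65 after the group means are removed.

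The microRNAs most like each member were taken by Spearman's rho over the same values, as a description. In myocardium, among 482 others, miR-29b-3p ranked 1st for miR-29a-3p (rho 0.57), ahead of miR-181d-5p (0.55) and let-7g-3p (0.50). For miR-29b-3p they were miR-146a-3p (0.67), miR-20b-5p (0.59) and miR-300-5p (0.58), and for miR-29c-3p they were miR-208b-5p (0.54), miR-181c-5p (0.53) and miR-547-3p (0.51). miR-21-5p was nearest to miR-1839-5p and miR-30d-5p (both 0.83) and miR-378a-3p (0.81), over 21 samples. In amniotic fluid miR-21-5p was the nearest of 272 microRNAs to miR-29a-3p (0.72) and to miR-29b-3p (0.67), which miR-34c-3p followed for the latter (0.67), and miR-376a-3p was nearest to miR-29c-3p (0.70). In serum the nearest were miR-23b-3p for miR-29a-3p (0.77), miR-192-5p for miR-29b-3p (0.88), miR-194-5p for miR-29c-3p (0.87) and miR-26a-5p for miR-21-5p (0.71), of 218 microRNAs over 14 samples.

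A list of 17 other microRNAs with a known part in fibrosis was set beside the members. In all DMO-exposed against NC myocardium, 10 of the 17 had a log2 fold change above 0 and the list's median was 0.16, against -0.06 over all microRNAs. Of the list 3 of 17 were called and all 3 were lower, while 8.49% of all microRNAs were called, 11 of the 41 higher. The 3 were miR-101a-3p (-0.83, SE 0.19, adjusted p = 0.0157) and miR-101b-3p (-0.76, SE 0.18, adjusted p = 0.0157), which are known to restrain fibroblasts, and miR-26a-5p (-0.45, SE 0.12, adjusted p = 0.0249), which is known to repress collagen and growth factor messages, all by edgeR. With scaling by library size none of these was called (log2 fold changes -0.50, -0.40 and -0.08), and 4 others of the list were called higher. Among the 4 were miR-155-5p, a microRNA of activated immune cells (1.12), and miR-132-3p, which promotes growth of heart muscle cells (1.1). That scaling called 11.6% of all microRNAs in either direction, 47 of the 56 higher, and the median over all microRNAs was 0.25. In the separate comparisons of VSD and of non-VSD with NC 0 of 17 were called by edgeR, and the unadjusted p was under 0.05 for 5 and 6 of them, as for 19.2% and 17.5% of all microRNAs. In VSD myocardium the lowest p belonged to miR-101a-3p (-0.74, SE 0.21, adjusted p = 0.0753), and in non-VSD myocardium to miR-101b-3p (-0.78, SE 0.17, adjusted p = 0.0533).

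In VSD against non-VSD myocardium 0 of the 17 were called, as were 0% of all microRNAs. Before adjustment 2 of the 17 passed, as did 11.6% of all microRNAs, the lowest p being that of miR-24-3p (-0.43, SE 0.19, adjusted p = 0.426, edgeR). In amniotic fluid 0 of the 12 to 14 tested were called in any comparison. miR-199a-3p, which is abundant in mesenchymal cells, had the lowest p of the list in VSD against NC (-1.23, SE 0.36, adjusted p = 0.174) and in all DMO against NC (-1.14, SE 0.30, adjusted p = 0.0572, edgeR). There its median was 65410 CPM in NC and 25980 CPM in DMO-exposed samples, TMM-scaled. In non-VSD against NC the lowest p was that of miR-101a-3p (1.86, SE 0.68, adjusted p = 0.110), and in VSD against non-VSD that of miR-34a-5p (0.81, SE 0.35, adjusted p = 0.331, edgeR). In serum 0 of 14 tested were called, as were 0% of all microRNAs. An unadjusted p under 0.05 belonged to 1 of the list, miR-26a-5p (-0.72, SE 0.30, adjusted p = 0.291, edgeR), and to 13.7% of all microRNAs.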

How the data were processed

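The study sequenced small RNA from fetal hearts, the fluid around the fetuses and the dams' serum. Images were converted to reads with bcl2fastq (2.19 is named in the submitters' processing notes). The reads were trimmed and filtered, with the Fastx-toolkit named for the quality filter, and counts of reads per mature microRNA were deposited in 5 tables. The aligner, the microRNA annotation and the build are not given in the sources used here. The tables also hold 70 columns of the authors' normalized values and 4 of group means, which were not used, and columns of the authors' own comparisons (fold changes and p-values), which were not used either.

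From the deposited counts, microRNAs were kept by filterByExpr (minimum count 10, minimum total 15), scaled by TMM and tested by edgeR 4.0.16 in R 4.3.3 (quasi-likelihood test, Benjamini-Hochberg adjustment over all microRNAs tested, called at an adjusted p under 0.05). VSD against non-VSD, and both DMO groups (weighted equally) against NC, came from a fit of all 3 groups. The NC counts are the same in both tables of a tissue. Log2 CPM of single microRNAs used a prior count of 2. Permutation tests were exact over 3432 groupings of 7 and 7 samples or used 100000 random draws, two-sided. Tables and figures were made with Python 3.11.15, pandas 2.3.3 and matplotlib 3.10.9. The procedure was tested on simulated data.

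Results were computed again with DESeq2 1.42.0, with limma 3.58.1 (library-size CPM, log2 after adding 1), with library size alone as the scaling, without the filter, with a filter of at least 10 counts per sample, with the replicate number as a block, with other groups in the fit, and each sample left out. The library-size scaling of the list of 17 was added after the data had been seen. The text names the 4 members, the other arms of their hairpins, microRNAs among the 3 nearest to each member by rho and, of the list of 17, those called or with the lowest p in a comparison. Under library-size scaling, miR-155-5p and miR-132-3p were named after their values were seen. The members and the lists were chosen with earlier results of these data known.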

Additional observations from a re-analysis of the deposited data

Results flagged for a closer look

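Among 32 groups of 7 samples (4 members in 8 groups), 4 held a sample that stood apart on the log2 scale by Dixon's test, where chance gives about 1 in 20. They were NC replicate 7 of the amniotic fluid, with miR-29b-3p at 0 CPM, non-VSD replicate 4 of the amniotic fluid, with miR-29a-3p at 70.3 CPM, VSD replicate 3 of the serum, with miR-29c-3p at 4024 CPM, and VSD replicate 7 of the serum, with miR-21-5p at 1016 CPM, all TMM-scaled. Without non-VSD replicate 4 the log2 fold change of miR-29a-3p in non-VSD against NC amniotic fluid was 0.97.

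The change of miR-29b-3p in VSD against NC was larger in myocardium than in amniotic fluid by 1.99 and than in serum by 1.17 in mean log2 CPM, each with an unadjusted permutation p under 0.05. After adjustment over 16 tests neither passed (adjusted p = 0.310 and 0.109). In amniotic fluid miR-29b-3p was below the count filter in VSD against NC, with 0 counts in 3 of 7 VSD and 1 of 7 NC samples.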

How the results depend on the processing

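In myocardium the calls of miR-29b-3p depended on the tool. In VSD against NC it had an adjusted p under 0.05 with DESeq2 (log2 fold change 1.16), limma on log2 of library-size CPM + 1 (1.32), library-size scaling (1.53) and the fit of all 3 groups (1.16), each of which called 1 member in place of 0, and in non-VSD against NC with DESeq2 (0.94) and limma (1.04), which also called 1. The number past the study's threshold there rose from 0 to 1 with limma, library-size scaling and the block. In all DMO against NC, limma and library-size scaling called 2 members, the other being miR-29c-3p (0.67 and 0.85). At least 10 counts in every sample removed miR-29b-3p and left 0 members called, and 0 past the study's threshold in VSD and in all DMO against NC. Over all microRNAs, edgeR called 2 in VSD, 1 in non-VSD and 41 in all DMO against NC, DESeq2 46, 48 and 66, limma 44, 29 and 53, library-size scaling 38, 22 and 56, and the filter of at least 10 counts 15, 8 and 45. The fit of all 3 groups called 25 in VSD and 7 in non-VSD, the block 0, 0 and 5, and no filter 1, 3 and 25. In all DMO against NC 11 of the 41 were higher, against 47 of 56 with library-size scaling and 48 of 53 with limma. In VSD these were 1 of 2, 32 of 38 and 41 of 44, with 16 of 46 by DESeq2, and in non-VSD 1 of 1, 21 of 22, 27 of 29 and 21 of 48.

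Same-numbered samples correlated between -0.625 and 0.472 in their deviations from the group means, and in no comparison did every pair pass 0.1. Only VSD and non-VSD fetuses could share a dam, since NC dams received distilled water. In VSD against non-VSD myocardium the 7 pairs ranged from -0.409 to 0.421 (median 0.167), and 5 of 7 passed 0.1. In amniotic fluid 0 of 7 did. Whether the numbers mark shared dams cannot be decided from these correlations. With the replicate number as a block, miR-29b-3p in all DMO against NC myocardium kept its log2 fold change of 1.06 at an adjusted p of 0.0565 (edgeR), so that 0 members were called.

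Signs turned for small or scattered values. miR-21-5p in myocardium became 0.15 and 0.16 in VSD, 0.18 and 0.18 in non-VSD and 0.16 and 0.17 in all DMO against NC, with limma and library-size scaling, and miR-29c-3p in VSD against non-VSD became 0.016 with the latter. In amniotic fluid, limma and the block gave -0.10 and -0.13 for miR-29a-3p in VSD against NC, -0.16 and -0.10 in VSD against non-VSD, and -1.43 and -0.66 for miR-29b-3p in non-VSD and -1.72 and -1.25 in all DMO against NC, where limma gave -0.019 for miR-29a-3p. In serum, miR-29a-3p was 0.021 with DESeq2, 0.071 with limma, 0.065 with library-size scaling, 0.044 with at least 10 counts and 0.015 with the block, and miR-29b-3p was 0.035 with library-size scaling. Library-size log2 CPM turned the myocardium minus amniotic fluid difference of the non-VSD changes to 0.20 for miR-29c-3p and 0.17 for miR-21-5p. Unless a cause is named above, the cause was not tested.

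With 1 library left out, the log2 fold change of miR-29b-3p in myocardium ranged from 0.95 to 1.24 in VSD, from 0.85 to 1.12 in non-VSD and from 0.93 to 1.27 in all DMO against NC, and each count of members called there from 0 to 1. The number past the study's threshold also ranged from 0 to 1 in these 3 comparisons (0 in all DMO against NC without NC replicate 1 or 5, VSD replicate 1 or 3, or non-VSD replicate 4), and in VSD against non-VSD amniotic fluid, where only the set without VSD replicate 6 gave 1. Ranges that crossed 0 in amniotic fluid were, for miR-29a-3p, -0.29 to 0.98 in VSD against NC and -0.97 to 0.40 in VSD against non-VSD, for miR-29b-3p, -1.71 to 0.33 in VSD against non-VSD, -0.51 to 0.54 in all DMO and -0.28 to 0.69 in non-VSD against NC, for miR-29c-3p, -0.0057 to 0.32 in all DMO against NC, and for miR-21-5p, -0.24 to 0.096 in all DMO and -0.028 to 0.31 in non-VSD against NC. Others that did were miR-29a-3p in serum (-0.080 to 0.072) and in non-VSD against NC myocardium (-0.0022 to 0.17) and miR-29c-3p in VSD against non-VSD myocardium (-0.21 to 0.014). Differences of shares, in percentage points, ranged in amniotic fluid from -1.22 to 5.53 (VSD) and -9.16 to 2.74 (non-VSD) for miR-29a-3p and from -4.35 to 2.73 (VSD) and -2.32 to 10.1 (non-VSD) for miR-29c-3p, in serum from -0.0968 to 0.0198 for miR-29b-3p, and in VSD myocardium from 4.27 to 6.82 for miR-29b-3p and from -2.02 to 0.0121 for miR-29c-3p.

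miR-29b-3p was at 0 in 7 amniotic fluid samples, and in myocardium its counts were as low as 7 in a sample. Amniotic fluid differed from myocardium and serum in library kit and sequencer. Litter was not known.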
